A study of Mus musculus with 30 samples.

Results

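Glutamate transport and the glutamate-glutamine cycle were examined through 7 genes, the plasma membrane transporters Slc1a1 to Slc1a5 and the enzymes Glul and Glud1, out of 23993 genes whose expression is given as FPKM, which scales fragments by transcript length and sequencing depth. The genes were selected on the FPKM of Slc1a2, because it was listed at exactly 0 in every Sst library from unstressed mice and at high values in all other libraries, so its family and the enzymes that use its substrate were set beside it. That pattern of Slc1a2 is therefore given as a description, without a test. RNA-seq was performed on tdTomato-tagged cells sorted by FACS from the medial prefrontal cortex of C57BL/6 mice aged 6 to 12 weeks, heterozygous for an Sst-Cre or Pvalb-Cre driver and a Cre-dependent tdTomato reporter (Ai9); tdTomato thus marked every cell with a history of Cre activity. The groups were unstressed Sst females (7 libraries), unstressed Sst males (7), Sst males after 14 days of chronic unpredictable stress (CUS; 3) and unstressed Pvalb males (7). A further 6 samples of the series, all females, are not analysed here.

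Both SST0-M with SST1-M and PV0-M with PV2-M held nearly the same values and were averaged, which left 22 samples. Titles of the Sst male controls were of 2 kinds, numbered (SST0/1-M, SST3-M and SST4-M) and dated (SS04031R, SST040241L and SST04241LL), and all 3 CUS samples had dated titles. The titles of the CUS samples and of SS04031R start alike, and those of the other 2 dated controls start differently. In dated libraries 53.5% to 75.7% of the summed FPKM belonged to small nucleolar RNA genes, against 1.87% to 8.29% in numbered ones. In PV1-M, PV4-M and PV5-M, which are labelled male, Xist was at 300 to 333 FPKM. The Y-linked Eif2s3y, Kdm5d and Uty were also present in them, at no less than 8.58, 2.4 and 2.47 FPKM. Results with Pvalb samples are therefore also given without PV1-M, PV4-M and PV5-M. Of the Pvalb samples kept there, PV3-M had 6.64 and PV6-M 5.12 FPKM of Xist, against at most 0.36 FPKM in Sst male controls. Markers went against the labelled cell type. The mean level of Sst was 9.24 FPKM in Sst controls and 23.3 FPKM in Pvalb controls, Gad1 was at 0.542 and 1.13 FPKM, and Slc32a1, Lhx6 and Dlx5 were under 1 FPKM in both. In contrast, the 12 astrocyte markers summed to 584 to 2915 FPKM per sample and the 11 microglial markers to 2899 to 10884 FPKM. The values below are therefore called those of Sst and Pvalb samples, and in such bulk samples fewer cells of a type and less RNA per cell cannot be told apart.

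Glutamate released at synapses is cleared mainly by astrocytes, through the sodium-dependent transporters GLT-1 (encoded by Slc1a2) and GLAST (Slc1a3). Glutamine synthetase (Glul) converts the glutamate to glutamine inside the astrocyte, glutamine returns to neurons, and there it is the precursor of both glutamate and GABA. EAAC1 (Slc1a1) is chiefly a neuronal glutamate transporter, ASCT1 (Slc1a4) and ASCT2 (Slc1a5) exchange neutral amino acids, and glutamate dehydrogenase (Glud1) oxidizes glutamate in mitochondria.

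Sequences just before the start site are shown for the 2 astrocyte transporters, Slc1a2 and Slc1a3, since their levels are set side by side here. Each is the 250 bases before the start listed by RefSeq for GRCm38.p6 (the mm10 build), 5′ to 3′ on the gene's strand, and such windows were found for 6 of the 7 genes (not for Slc1a5). Capitals mark letters of 3 motifs on either strand. The TATA box was searched as TATAAA. The CCAAT box was searched by the letters of its name. The GC box was searched as the letters GGGCGG. The Slc1a2 window is chr2:102706188-102706437 on the plus strand and the Slc1a3 window is chr15:8710808-8711057 on the minus strand.
Slc1a2: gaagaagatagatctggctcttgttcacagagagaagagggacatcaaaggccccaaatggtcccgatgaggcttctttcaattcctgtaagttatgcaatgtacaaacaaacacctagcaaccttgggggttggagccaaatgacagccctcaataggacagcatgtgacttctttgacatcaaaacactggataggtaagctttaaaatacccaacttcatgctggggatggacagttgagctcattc
Slc1a3: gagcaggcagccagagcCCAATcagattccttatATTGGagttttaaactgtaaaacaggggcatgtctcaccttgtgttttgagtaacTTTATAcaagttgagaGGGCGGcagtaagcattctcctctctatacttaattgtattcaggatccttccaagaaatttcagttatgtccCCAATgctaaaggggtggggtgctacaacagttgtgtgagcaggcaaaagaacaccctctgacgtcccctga
The Slc1a2 window held none of the 3 motifs, and the Slc1a3 window held 1 TATAAA, 3 CCAAT and 1 GGGCGG, none of them overlapping. Among 32851 such windows, 12.4% held TATAAA, 33.9% CCAAT and 32.7% GGGCGG. Both windows were 44.8% G or C, with 1 CpG in Slc1a2 and 2 in Slc1a3, against medians of 52.4% and 6 CpGs over all windows. The start listed for Slc1a2 lies 48199 bases inside the annotated gene, which spans chr2:102658239-102790784, so part of the annotated gene lies upstream of this window. The Slc1a3 window ends where its annotated gene begins, so the 2 windows are not alike in position.

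**Figure D1:**
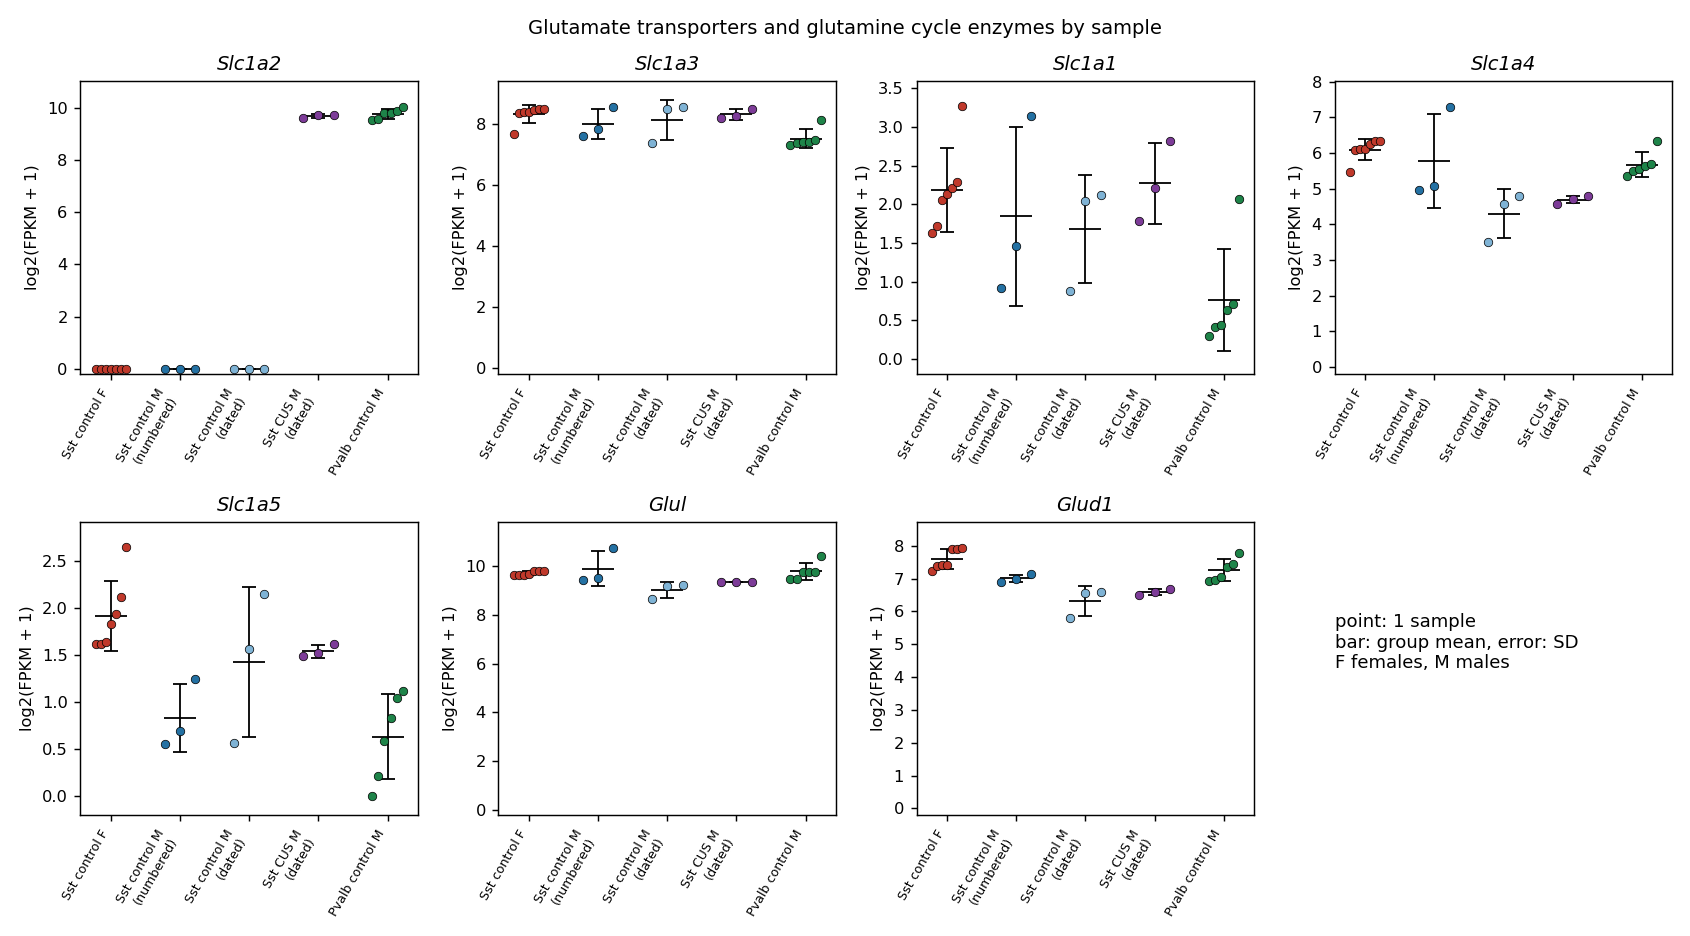
Level of each of the 7 genes, as log2(FPKM + 1) on the vertical axis, in 22 samples arranged by group; points are samples, horizontal bars group means and error bars the SD. Slc1a2 lies at 0 in the 13 Sst control samples and between 741 and 1038 FPKM in the other 9, whereas Slc1a3, Glul and Glud1 are above 50 FPKM in every sample.

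Slc1a2 was listed at 0 in all 14 unstressed Sst libraries, 7 female and 7 male. After CUS, Slc1a2 was at 851 FPKM in SS04031LL, 849 in SS04031RL and 779 in SS04031RR (826 ± 41.1, SD, n = 3). In Pvalb controls Slc1a2 ranged from 741 to 1038 FPKM with a median of 888 (874 ± 113, SD, n = 6). The CUS samples lay within the range of the Pvalb samples, and no sample had an intermediate level. The mean of Slc1a2 was 904 ± 27.6 FPKM (SD, n = 3) in the Pvalb samples with high Xist and 844 ± 168 FPKM (SD, n = 3) in the others. Of 5968 genes at 0 in all 14 unstressed Sst libraries, Slc1a2 was the only one above 0.4 FPKM in each of the other 10 libraries.

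Listed zeros of this kind were not particular to Slc1a2 in this table. Across all 10 male Sst libraries, control and CUS, 8 genes were at 0 while exceeding 0.4 FPKM in the other 14. They included Lars2, the mitochondrial leucyl-tRNA synthetase that every cell uses, at 579 to 1758 FPKM elsewhere. The other 7 were Gfm2, Arhgap21, Zc3h7a, Filip1l, Peak1, Cdk8 and Jarid2, and all 8 were found after their values were seen. Over the 7 unstressed Sst female libraries 3 genes met the same definition, the Y-linked Eif2s3y, Kdm5d and Uty, and no gene did over the CUS or the Pvalb libraries. With Lars2 at 0 in all male Sst libraries, a 0 in this table may be a failed estimate, so Slc1a2 is only said to be listed at 0 and no fold is given for it.

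The genes on either side of Slc1a2 were detected in every library. Pamr1, 15198 bases away, was at 3.32 to 13.1 FPKM, and Cd44, 20357 bases away, was at 0.233 to 3.15 FPKM. Within the span of Slc1a2, RefSeq lists the long noncoding RNAs LOC115489466 and Gm13872, neither of which is a row of the table.

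Astrocyte markers did not share the zeros of Slc1a2. None of 12 markers was at 0 in all samples of any group. Their summed level was 584 to 2915 FPKM in the 13 unstressed Sst samples and 1301 to 2145 FPKM in the other 9. Aqp4, the astrocyte water channel, was at 27.7 to 111 FPKM in unstressed Sst samples, 55.1 to 72.7 FPKM after CUS and 39.2 to 71.3 FPKM in Pvalb samples. Gja1, which encodes the gap junction protein connexin 43, was at 82.0 to 360 FPKM, 237 to 305 FPKM and 84.4 to 189 FPKM in the same order. The unstressed Sst samples thus spanned the levels of both other groups for these 2 markers.

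**Figure D2:**
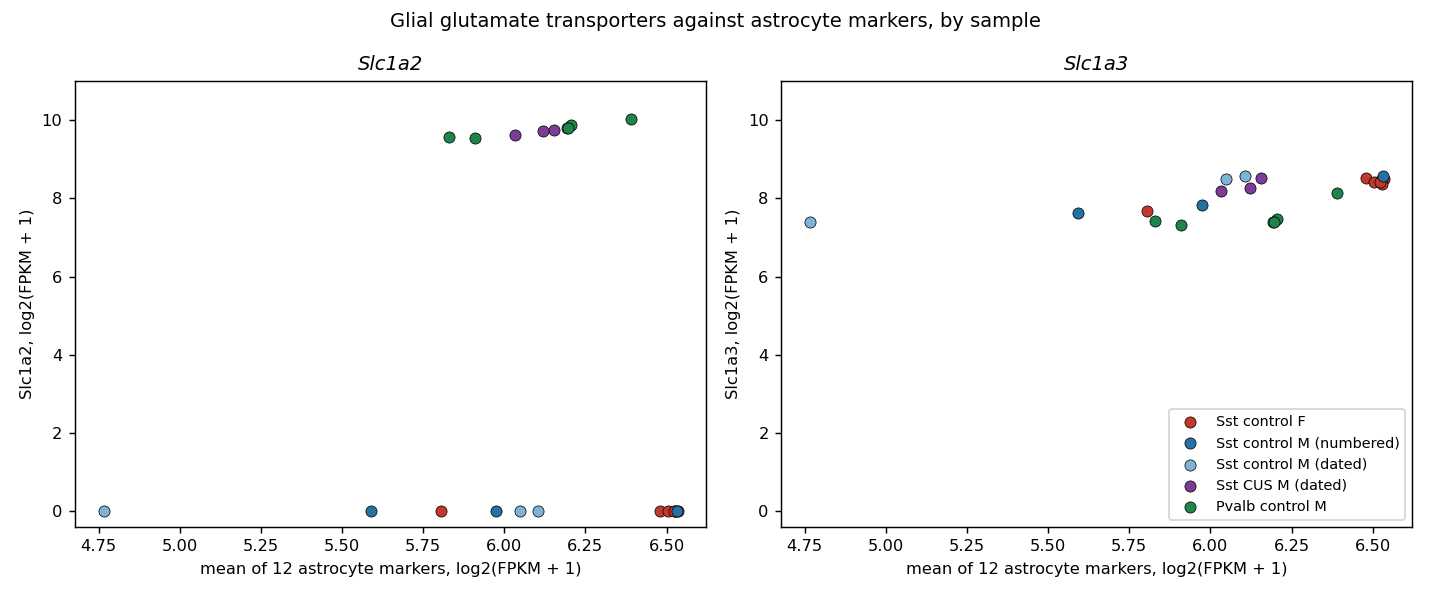
Slc1a2 (left) and Slc1a3 (right), as log2(FPKM + 1), against the mean log2(FPKM + 1) of 12 astrocyte markers, with 1 point per sample and colours for the groups. Slc1a2 is at 0 in Sst controls over the whole range of the markers, and Slc1a3 is at 159 to 377 FPKM in all 22 samples.

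Where Slc1a2 was above 0, its level was set beside that of Slc1a3, the other astrocyte transporter. The ratio of Slc1a2 to Slc1a3 was 2.60 ± 0.233 after CUS (SD, n = 3) and 4.77 ± 0.660 in Pvalb samples (SD, n = 6). The ratios ranged from 2.33 to 2.78 and from 3.67 to 5.31, given only as a description because Slc1a2 chose the set. The mean of Slc1a3 was 320 FPKM after CUS and 188 FPKM in Pvalb samples. These groups differ in driver line, stress and kind of title, which cannot be told apart here.

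Expression of the remaining 6 genes was next compared between Sst and Pvalb controls (13 against 6 samples). The Sst controls were 7 females and 6 males, 3 of these males with dated titles. All Pvalb samples were labelled male and had numbered titles. The driver line is therefore mixed with labelled sex and kind of title in this comparison. Slc1a1 and Slc1a3 were higher in Sst samples and the other 4 did not pass the test, by limma on log2(FPKM + 1) with Benjamini-Hochberg adjustment over 14524 genes at a threshold of 0.05. Of all tested genes 7.8% were called, 3.3% higher in Sst and 4.5% lower.

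Slc1a3, the astrocyte transporter GLAST, was at 205 to 365 FPKM in Sst females with a median of 341 (328 ± 55.5, SD, n = 7). Numbered Sst males had 377 FPKM of Slc1a3 in SST0/1-M, 228 in SST4-M and 195 in SST3-M. The dated Sst males SST04241LL and SST040241L were at 377 and 362 FPKM, and SS04031R was at 167 FPKM. Pvalb samples were at 159 to 282 FPKM with a median of 169.8 (188 ± 46.9, SD, n = 6). PV0/2-M was the highest of the Pvalb samples, the other 5 lay at 159 to 176 FPKM, and SS04031R was the only Sst sample within the range of those 5. The log2 fold change of Slc1a3 was 0.69 (SE 0.21, adjusted p = 0.0428).

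Slc1a1, the neuronal transporter EAAC1, was expressed at low levels throughout. It was at 2.08 to 8.64 FPKM in Sst females with a median of 3.39 (3.86 ± 2.21, SD, n = 7). SST0/1-M had 7.83 FPKM against 1.76 FPKM for SST3-M and 0.893 FPKM for SST4-M, and of the dated Sst males SST04241LL and SST040241L had 3.36 and 3.14 FPKM and SS04031R 0.839 FPKM. In Pvalb samples Slc1a1 was at 0.228 to 3.18 FPKM with a median of 0.450 (0.879 ± 1.14, SD, n = 6). All Sst samples exceeded the 5 Pvalb samples other than PV0/2-M, which was within the Sst range. The log2 fold change was 1.23 (SE 0.33, adjusted p = 0.0263).

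Both calls depended on which samples were compared, and with Sst females alone driver line and labelled sex cannot be told apart. Against Sst females alone the log2 fold changes were 1.43 for Slc1a1 (adjusted p = 0.00512) and 0.81 for Slc1a3 (adjusted p = 0.00296), whereas against numbered Sst males alone they were 1.08 (adjusted p = 0.379) and 0.48 (adjusted p = 0.407), with 0.0912% of all genes called. Without the 3 Pvalb samples high in Xist they were 1.07 (adjusted p = 0.370) and 0.59 (adjusted p = 0.437), and only 14 of all genes (0.0964%) were called. Without SST0/1-M and PV0/2-M, an alternative chosen after seeing the data, both calls held (adjusted p = 0.00275 for Slc1a1 and 0.0117 for Slc1a3). That fit also called more of all genes than the fit with every sample, so the smaller adjusted p is not particular to Slc1a1 and Slc1a3.

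Slc1a5, the glutamine exchanger ASCT2, had a log2 fold change of 0.92 (SE 0.29, adjusted p = 0.0514) between Sst and Pvalb samples. It was at 2.06 to 5.29 FPKM in Sst females (median 2.56; 2.90 ± 1.16, SD, n = 7) and at 0 to 1.17 FPKM in Pvalb samples (median 0.641; 0.613 ± 0.476, SD, n = 6), without overlap. Slc1a5 was higher in Sst females than in Pvalb samples by 1.28 on the log2 scale (SE 0.24, adjusted p = 0.00193). In that comparison 25.1% of genes were called and 6.61% did not overlap. All Pvalb samples are labelled male, so driver line and labelled sex cannot be told apart there. Among Pvalb samples the 3 with high Xist were at 0 to 0.500 FPKM and the others at 0.781 to 1.17 FPKM. Against the numbered Sst males the log2 fold change was 0.20 (SE 0.33, adjusted p = 0.782).

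The neutral amino acid exchanger Slc1a4 and both enzymes did not pass the test. Log2 fold changes were -0.07 for Slc1a4 (95% interval -0.87 to 0.73, adjusted p = 0.938), -0.19 for Glul (-0.66 to 0.29, adjusted p = 0.643) and -0.08 for Glud1 (-0.63 to 0.46, adjusted p = 0.878). None of the 6 genes had non-overlapping ranges in Sst and Pvalb samples, against 0.833% of all genes.

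Markers of other cell types moved in the same comparison. Of 6 endothelial markers 5 were called higher in Sst samples, and their summed level was 16.6 to 181 FPKM in Sst and 10.9 to 73.8 FPKM in Pvalb samples, with none at 0 throughout a group. Of 12 astrocyte markers none was called and 2 had an unadjusted p below 0.05, as did 25.1% of all genes. The astrocyte sums overlapped (584 to 2915 and 1301 to 2145 FPKM). Of 11 microglial markers 1, C1qc, was called lower in Sst samples, 6 had an unadjusted p below 0.05 and the log2 fold change was negative for 10 (median -0.64), with sums of 2899 to 10884 FPKM in Sst and 5862 to 7372 FPKM in Pvalb samples. Against Sst females alone, where Slc1a5 was called, 9 of the 11 microglial markers were called lower (median log2 fold change -0.96; sums of 2899 to 5361 FPKM in females). Of 9 interneuron markers tested 2, Sst and Pvalb, were called lower in Sst samples, and all 9 log2 fold changes were negative. Of 7 oligodendrocyte markers 1, Mbp, was called lower, while the log2 fold changes of the other 6 were positive. The part of these markers in the results for Slc1a1, Slc1a3 and Slc1a5 was not tested.

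**Figure D3:**
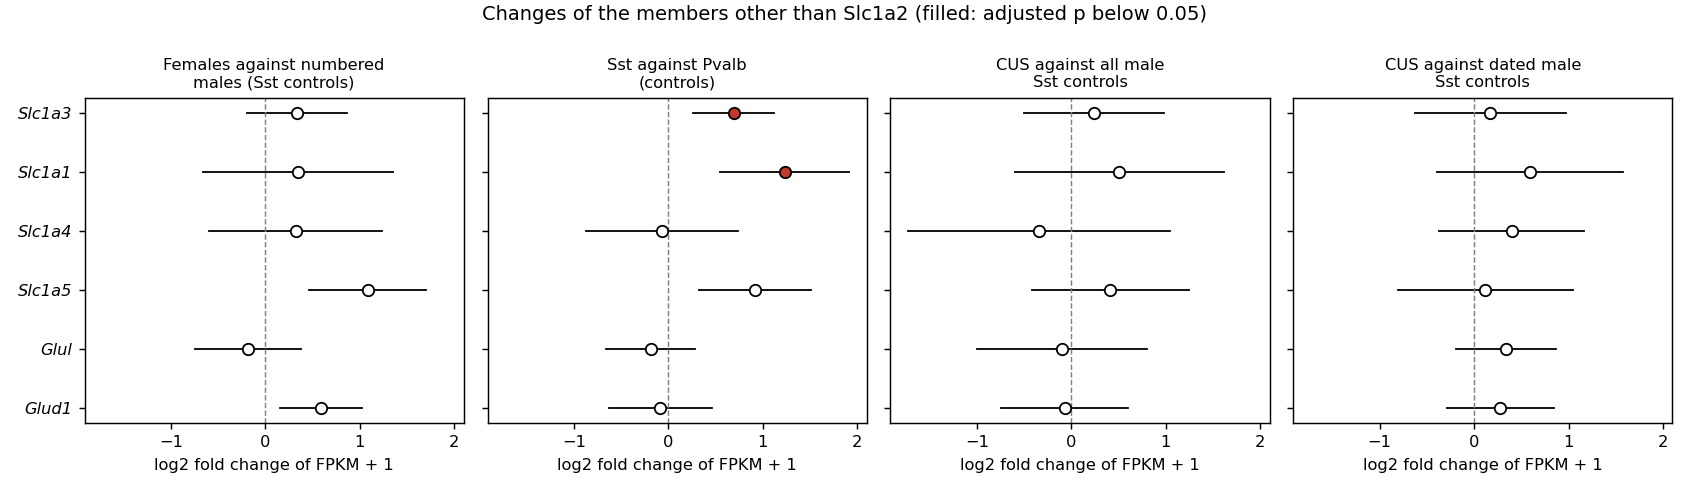
Log2 fold change of FPKM + 1 (horizontal axis) with its 95% interval for the 6 tested genes in 4 comparisons, each positive where the first-named group was higher; filled points have an adjusted p below 0.05. Slc1a1 (1.23) and Slc1a3 (0.69) are filled in the comparison of Sst with Pvalb controls, and no point is filled for females against numbered males, CUS against all male controls or CUS against dated male controls.

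Sex was then compared in unstressed Sst samples, with 7 females against the 3 numbered males, whose titles were of the same kind. No gene of the 6 passed the threshold, while 493 of 14443 genes did (3.41%). At an unadjusted p below 0.05, 2 of the 6 differed (24.3% of all genes), Slc1a5 and Glud1, and these 2 were also the ones whose ranges did not overlap (9.73% of all genes).

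Slc1a5 in the numbered males was at 1.37 FPKM in SST4-M, 0.619 in SST3-M and 0.469 in SST0/1-M, below the lowest female (2.06 FPKM). Its log2 fold change, females minus males, was 1.08 (SE 0.28, adjusted p = 0.0565). The dated males, at 3.43 FPKM in SST04241LL, 1.95 in SST040241L and 0.479 in SS04031R, reached into the female range, and with all 6 males the log2 fold change was 0.79 (SE 0.29, adjusted p = 0.0813).

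Glud1, glutamate dehydrogenase, was at 151 to 245 FPKM in females with a median of 172 (196 ± 40.8, SD, n = 7). Glud1 was at 139 FPKM in SST4-M, 126 in SST3-M and 119 in SST0/1-M (128 ± 10.2, SD, n = 3). Females lay above males in every pair, and the log2 fold change was 0.59 (SE 0.20, adjusted p = 0.111). Dated males were lower still, with SST04241LL at 95.4, SST040241L at 93.9 and SS04031R at 54.6 FPKM. With all males the log2 fold change of Glud1 was 0.93 (SE 0.23, adjusted p = 0.0218), where 11.7% of all genes were called, and Glud1 was the 1 gene of the 6 to pass.

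The female samples themselves fell at separate levels for the 2 enzymes. Glud1 was at 236 to 245 FPKM in 3 samples (SST1-F, SST4-F, SST3-F) and at 165 to 172 FPKM in another 3 (SST2-F, SST6-F, SST5-F). Glul was at 785 to 798 FPKM in the first 3 and at 888 to 890 FPKM in the second 3, so the order was opposite. SST-F had 151 FPKM of Glud1 and 811 FPKM of Glul. Pvalb samples also fell at separate levels. Those high in Xist had 864 to 873 FPKM of Glul and 122 to 131 FPKM of Glud1. PV3-M had 713 and 175 FPKM of these enzymes, PV6-M 715 and 162 FPKM, and PV0/2-M 1366 and 217 FPKM.

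Glul, glutamine synthetase, was the most abundant of the 6 genes other than Slc1a2 in every Sst control sample. It was at 785 to 890 FPKM in females (median 811; 836 ± 50.1, SD, n = 7). SST0/1-M had 1707 FPKM, the highest value of all samples, against 734 FPKM for SST4-M and 688 FPKM for SST3-M. SST0/1-M was likewise the highest of all samples for Slc1a4, at 156 FPKM against 33.1 for SST4-M, 30.0 for SST3-M and 43.1 to 80.1 in females (median 68.5). The 3 numbered males thus straddled the females for both genes, and log2 fold changes were -0.19 for Glul (SE 0.26, adjusted p = 0.672) and 0.32 for Slc1a4 (SE 0.42, adjusted p = 0.662). Without SST0/1-M, Slc1a4 was higher in females (log2 fold change 1.08, adjusted p = 0.0187) and the log2 fold change of Glul was 0.23. Leaving out any 1 sample called 100 to 1787 of all genes in this comparison. Slc1a1 (0.34, adjusted p = 0.669) and Slc1a3 (0.33, adjusted p = 0.409) did not pass either, with ranges that overlapped.

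When the dated males were used in place of the numbered ones, 3 of the 6 genes were called higher in females, in a comparison that called 41.5% of all genes. They were Slc1a4 (log2 fold change 1.80, SE 0.27, adjusted p = 0.000295), Glud1 (1.28, SE 0.23, adjusted p = 0.00094) and Glul (0.69, SE 0.17, adjusted p = 0.00649). In that comparison sex and the kind of title cannot be told apart.

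Cell type markers also moved with sex. Against the numbered males, 5 of 11 microglial markers were lower in females. The microglial sums were 2899 to 5361 FPKM in females and 5817 to 9415 FPKM in numbered males. None of 12 astrocyte markers was called and 2 had an unadjusted p below 0.05, as did 24.3% of all genes. The astrocyte sums were 1228 to 2222 FPKM and 1081 to 2915 FPKM. Of 6 endothelial markers 2 were higher in females (sums of 76.9 to 149 and 25.9 to 181 FPKM), as was 1 of 7 oligodendrocyte markers, Mobp, and none of 9 interneuron markers was called. Their part in the values of Glud1 and Slc1a5 was not tested.

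CUS was compared with control in Sst males, 3 against 6 samples, for the 6 genes other than Slc1a2. None passed the threshold and none had an unadjusted p below 0.05 (7.47% of all genes did). No gene of 14319 was called apart from Slc1a2 (0.00698%). The values of Slc1a2 in these groups chose the set and so fixed that outcome, which is no test of Slc1a2 and is not read as a result. None of the 6 had ranges that did not overlap, against 7.1% of all genes.

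Slc1a3 was at 365 FPKM in SS04031LL, 305 in SS04031RL and 291 in SS04031RR after CUS (320 ± 39.1, SD, n = 3), all within the range of the controls, 167 to 377 FPKM (median 295). Its log2 fold change was 0.24 (95% interval -0.50 to 0.99, adjusted p = 0.785). Slc1a1 was at 2.44, 6.07 and 3.64 FPKM in the same 3 samples against 0.839 to 7.83 FPKM in controls (median 2.45), with a log2 fold change of 0.51 (-0.60 to 1.62, adjusted p = 0.712). Neither glutamate transporter left the range of the controls.

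Slc1a4 after CUS was at 26.7 FPKM in SS04031LL, 25.2 in SS04031RL and 23.0 in SS04031RR. The dated controls, at 26.9 for SST04241LL, 22.9 for SST040241L and 10.4 for SS04031R, overlapped these values, and the numbered controls, at 30.0 to 156 FPKM, lay above them. The log2 fold change of Slc1a4 was accordingly 0.40 against dated controls (SE 0.32, adjusted p = 0.689), -1.08 against numbered controls (SE 0.61, adjusted p = 0.260) and -0.34 against both (SE 0.63, adjusted p = 0.838).

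Glul after CUS was at 654 FPKM in SS04031LL, 652 in SS04031RL and 655 in SS04031RR. The dated controls were at 401, 585 and 587 FPKM, all lower, and the numbered controls at 688 to 1707 FPKM, all higher. Log2 fold changes were 0.34 against dated controls (SE 0.22, adjusted p = 0.661) and -0.54 against numbered controls (SE 0.38, adjusted p = 0.354). Glud1 followed the same order, with 90.4 to 102 FPKM after CUS, 54.6 to 95.4 FPKM in dated controls and 119 to 139 FPKM in numbered controls (log2 fold changes 0.28, adjusted p = 0.700, and -0.42, adjusted p = 0.152). For these 3 genes the sign of the difference therefore depended on the kind of control title.

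Slc1a5 was at 2.07, 1.80 and 1.87 FPKM in SS04031LL, SS04031RL and SS04031RR. All 3 were above the numbered controls (0.469 to 1.37 FPKM) and within the range of the dated ones (0.479 to 3.43 FPKM). Against both kinds the log2 fold change was 0.41 (SE 0.38, adjusted p = 0.691). Within dated titles 1 of the 6 genes, Glul, did not overlap (18.7% of all genes), and against numbered controls 4 did not (44.7% of all genes), but none of the 6 was called in either comparison, in which 0.00705% and 16.1% of all genes were called.

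SS04031R had the lowest level of Slc1a3, Slc1a4, Glul and Glud1 among the Sst samples, and of all 22 samples for the last 3. Its astrocyte markers also summed to the lowest value, 584 FPKM, against 1441 and 1545 FPKM in the other 2 dated controls. The CUS samples were compared with those 2 controls only, an alternative chosen after seeing the data. In that comparison CUS and the start of the title, which SS04031R alone of the controls shares with the CUS samples, cannot be told apart. None of the 6 genes was called (0.113% of all genes were), and the log2 fold changes after CUS were 0.014 for Glud1, 0.0048 for Slc1a4, 0.16 for Glul (adjusted p = 0.494), -0.21 for Slc1a3 (adjusted p = 0.532), -0.31 for Slc1a5 (adjusted p = 0.705) and 0.19 for Slc1a1 (adjusted p = 0.881).

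None of 12 astrocyte markers was called between CUS and control males. An unadjusted p below 0.05 was found for 2 of them and for 7.47% of all genes. The astrocyte sums after CUS (1312 to 1529 FPKM) lay within those of the controls. Oligodendrocyte markers summed to 1656 to 2038 FPKM after CUS and 408 to 1477 FPKM in controls, with 0 of 7 called and 4 at an unadjusted p below 0.05. Endothelial markers summed to 143 to 219 FPKM and 16.6 to 181 FPKM, with 0 of 6 called and 3 at an unadjusted p below 0.05. Microglial markers summed to 3852 to 4639 FPKM after CUS and 4872 to 10884 FPKM in controls. None of the 11 was called, 6 had an unadjusted p below 0.05, and 6 had ranges that did not overlap (7.1% of all genes). The log2 fold change was negative for 10 of the 11 (median -0.88, against 0.018 over all tested genes). Against numbered controls alone 6 of the 11 were called lower. The part of these markers in the values of the 6 genes was not tested.

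The effect of title kind was measured directly in male Sst controls, dated minus numbered (3 against 3 samples). None of the 6 genes was called, none had an unadjusted p below 0.05 (23.6% of all genes did), and 585 of 14230 genes were called (4.11%). Slc1a4 (log2 fold change -1.48, SE 0.66, adjusted p = 0.227), Glul (-0.88, SE 0.44, adjusted p = 0.275) and Glud1 (-0.69, SE 0.31, adjusted p = 0.234) had ranges that did not overlap, as did 33.5% of all genes.

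The wider set of 24 genes of glutamate and glutamine handling was examined in the same fits, and 19 were abundant enough for testing in the comparison of Sst with Pvalb controls. The glutamate transporters Slc1a6 and Slc1a7, the vesicular transporters Slc17a6 and Slc17a8, and the liver-type glutaminase Gls2 had mean levels of at most 0.250 FPKM. Between Sst and Pvalb controls 1 of 19 genes was higher and 2 were lower in Sst samples, where 7.8% of all genes were called. The glutamine transporter Slc38a5 was at 0 to 6.76 FPKM in Sst (median 1.91) and at 0 in all Pvalb samples but 1, at 0.434 FPKM (log2 fold change 1.45, SE 0.36, adjusted p = 0.0170). Slc17a7, the vesicular transporter that loads glutamate in cortical excitatory neurons, was at 0.834 to 9.21 FPKM in Sst (median 3.31) and 1.48 to 24.7 FPKM in Pvalb samples (median 20.1; log2 fold change -1.75, SE 0.40, adjusted p = 0.0121). Asparagine synthetase (Asns), which consumes glutamine, was at 0 to 1.84 FPKM in Sst (median 0.461) and 0.358 to 5.74 FPKM in Pvalb samples (median 3.67; log2 fold change -1.48, SE 0.31, adjusted p = 0.00654). Without the Pvalb samples high in Xist, in which Slc17a7 was at 21.7 to 24.7 FPKM and Asns at 5.01 to 5.74 FPKM, none of the 19 was called. Of 5 excitatory neuron markers tested, which include Slc17a7, 3 were lower in Sst samples, and the 6 markers of that list summed to 25.2 to 237 FPKM in Sst and 25.7 to 532 FPKM in Pvalb samples; their part in the values of Slc17a7 and Asns was not tested.

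None of the 19 was called between females and numbered males (3 at an unadjusted p below 0.05, as were 24.3% of all genes) or between CUS and all male controls (1 at an unadjusted p below 0.05, as were 7.47% of all genes). Between females and all male controls 2 of 19 were called, both higher in females, with 11.7% of all genes called. They were the mitochondrial aspartate-glutamate carrier Slc25a12 (log2 fold change 0.78, SE 0.21, adjusted p = 0.0298) and the glutamine transporter Slc38a3 (0.93, SE 0.27, adjusted p = 0.0405). Between females and dated males, where sex and the kind of title cannot be told apart, 7 of 19 were higher and 1 was lower in females, with 41.5% of all genes called. The 3 with the largest differences were Arl6ip5, which encodes a membrane protein that binds the transporter EAAC1 (-1.61, adjusted p = 0.00272), the cystine-glutamate exchanger Slc7a11 (1.22, adjusted p = 0.00597) and Slc38a3 (1.13, adjusted p = 0.0136).

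Between dated and numbered male controls 1 of 19 was called, Arl6ip5, with 4.11% of all genes called. Arl6ip5 was at 21.5 to 22.4 FPKM in dated and 2.12 to 8.33 FPKM in numbered controls (log2 fold change 2.06, SE 0.42, adjusted p = 0.0413), and at 16.6 to 23.1 FPKM after CUS. Against numbered controls alone 2 of 19 were called after CUS, in a comparison that called 16.1% of all genes, Arl6ip5 (log2 fold change 1.96, adjusted p = 0.0260) and the mitochondrial glutamate carrier Slc25a18 (1.63, SE 0.17, adjusted p = 0.00463). Slc25a18 was at 95.8 to 105 FPKM after CUS, 28.8 to 34.2 FPKM in numbered controls and 26.9, 93.0 and 102 FPKM in dated controls.

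**Figure D4:**
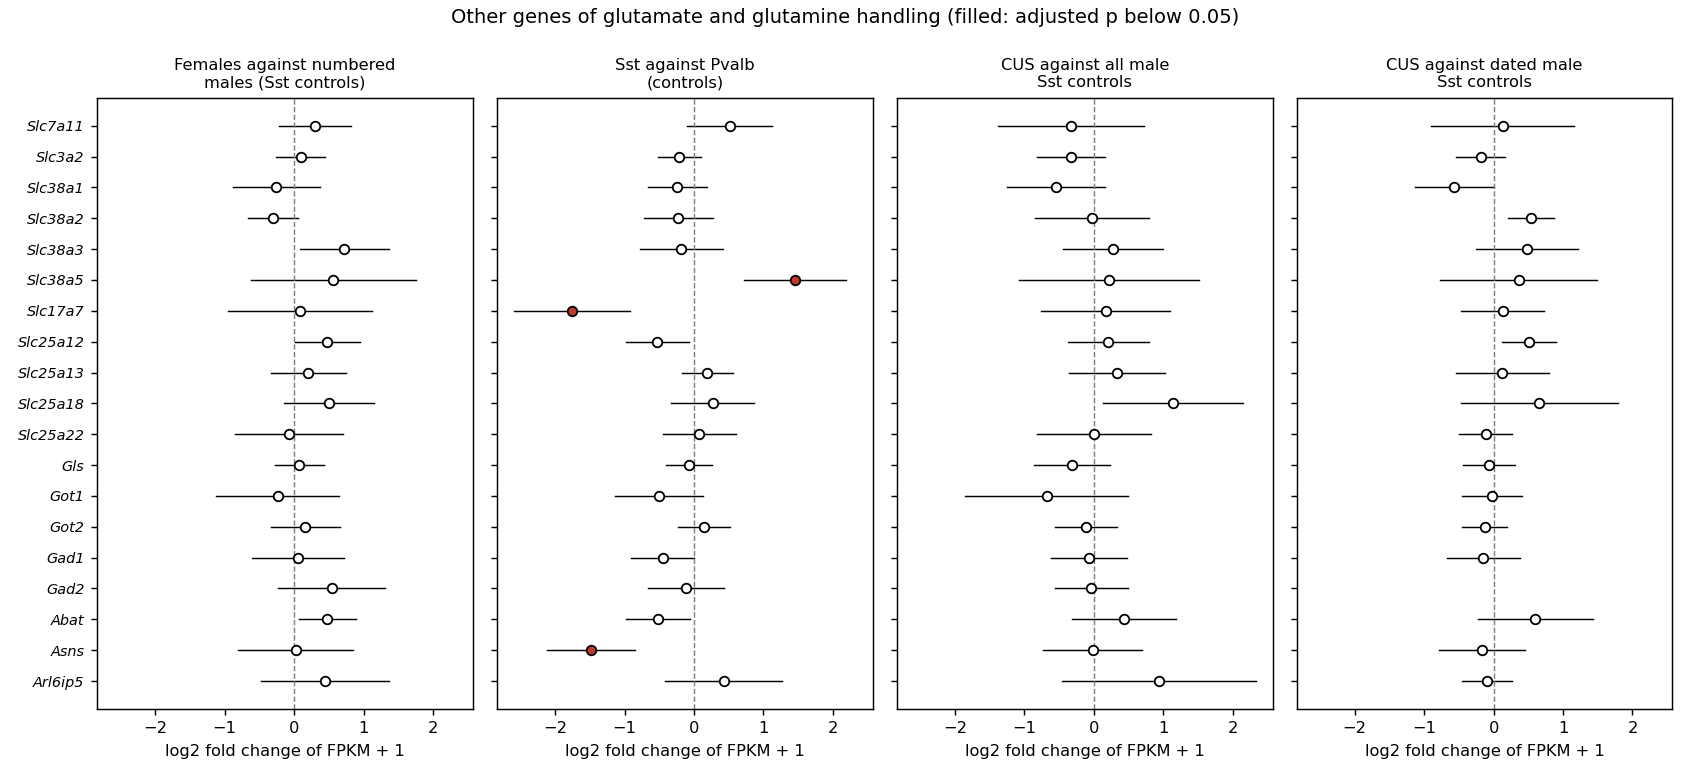
Log2 fold change of FPKM + 1 with its 95% interval for the other genes of glutamate and glutamine handling that were tested, in 4 comparisons; filled points have an adjusted p below 0.05. Slc38a5 (1.45), Slc17a7 (-1.75) and Asns (-1.48) are filled between Sst and Pvalb controls, and no gene is filled for females against numbered males, CUS against all male controls or CUS against dated male controls.

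The 6 genes other than Slc1a2 varied together to different degrees over the 22 samples, which share libraries, groups and kinds of title. As a description, Pearson's r of log2(FPKM + 1) was 0.89 for Slc1a4 with Glul, 0.76 for Slc1a4 with Glud1, 0.71 for Slc1a1 with Slc1a3 and -0.14 for Slc1a5 with Glul. Over the 16 numbered samples the first 2 were 0.79 and 0.29. The mean of the astrocyte markers had r = 0.81 with Slc1a4, 0.69 with Glul, 0.66 with Glud1, 0.62 with Slc1a3, 0.34 with Slc1a1 and 0.28 with Slc1a5. Over the 16 numbered samples these were 0.84 for Slc1a4, 0.51 for Glul, 0.45 for Glud1, 0.80 for Slc1a3, 0.39 for Slc1a1 and 0.22 for Slc1a5.

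Among 14566 genes, those most like each of these 6 over the 22 samples were Igfbp7 (r = 0.94), Kcnj8 and Ano1 for Slc1a1, and F3 (r = 0.97), AI464131 and Ptprd for Slc1a3. For the exchangers they were Elovl5 (r = 0.98), Prnp and Slitrk2 for Slc1a4, and Ccdc39 (r = 0.90), Ispd and Pla1a for Slc1a5. For the enzymes they were Fzd3 (r = 0.94), Tspan7 and 2810403A07Rik for Glul, and Lrrtm2 (r = 0.96), Oaz2 and Ogt for Glud1.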

How the data were processed

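The deposited table holds FPKM for 23993 gene symbols in 24 libraries. Per their methods, the authors used HISAT2 for alignment (mm10) and StringTie for quantification after trimming; mm9 with TopHat2 is named too, and the submitters' processing notes list TopHat2, Cufflinks, Cuffdiff and mm10. The authors removed outlying samples, applied ComBat and tested counts with DESeq2. Whether ComBat reached the deposited values is not stated. With no counts used here, depth and counting error are unknown; per-library totals were 276023 to 1311420 FPKM.

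Libraries whose log2 ratios (genes above 5 FPKM) had an SD below 10% of that of the group's second closest pair were averaged. Groups came from the labels. Genes with a mean above 0.4 FPKM were tested on log2(FPKM + 1) with limma 3.58.1 (trended, robust, two-sided; R 4.3.3) and Benjamini-Hochberg adjustment over all tested genes, threshold 0.05. Log2 fold changes on this scale understate changes of low genes. The fit was tested on simulated data. The labels do not tie samples to separate animals, although the study counts mice in its comparison of Sst with Pvalb cells. The p-values therefore measure the spread between these samples, which may in part be technical. Sst females and Pvalb samples fell into subsets of close values for Glul and Glud1, and each sample was still counted as independent. Whether the samples of a subset share a source was not tested, so SE and adjusted p may be too small. Other pseudocounts, filters, scalings, sample subsets and a replicate block were tried.

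The members and lists were chosen with earlier results of these data known. Named were the 7 members, the nearest genes to Slc1a2, up to 5 genes sharing its zeros, up to 3 called pathway genes with the largest change per comparison and the 3 genes most correlated with each member except Slc1a2. Gene positions and windows came from RefSeq (GRCm38.p6), in which 22499 symbols matched. An item of these data is not reported here.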

Additional observations from a re-analysis of the deposited data

Results flagged for a closer look

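Dixon's test on log2(FPKM + 1) was run in Sst females (7), Sst male controls of both kinds of title together (6) and Pvalb samples (6). It marked 7 values in 19 combinations of gene and group, where chance marks about 1 in 20, and all 7 belonged to 2 samples. SST-F stood apart among the 7 Sst females, with Slc1a1 at 8.64 FPKM (2.08 to 3.87 in the other 6), Slc1a3 at 205 FPKM (331 to 365) and Slc1a4 at 43.1 FPKM (66.4 to 80.1). PV0/2-M, the average of 2 near-identical libraries, stood apart among the 6 Pvalb samples, with Slc1a1 at 3.18 FPKM (0.228 to 0.637 in the other 5), Slc1a3 at 282 FPKM (159 to 176), Slc1a4 at 79.6 FPKM (40.4 to 50.5) and Glul at 1366 FPKM (713 to 873). Without PV0/2-M the Sst against Pvalb log2 fold changes were 1.49 for Slc1a1 (adjusted p = 0.00376) and 0.81 for Slc1a3 (adjusted p = 0.0132), by limma. Without SST-F the females against numbered males called 2 of the 6 genes, Slc1a5 (log2 fold change 0.96, adjusted p = 0.0256) and Glud1 (0.65, adjusted p = 0.0439). Both samples are singled out here because values of these same genes marked them. Leaving out 1 sample at a time called 100 to 1787 of all genes by sex and 389 to 2130 between Sst and Pvalb. With all samples 493 and 1133 genes were called, so the calls after an omission are not read as particular to these genes.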

How the results depend on the processing

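Of 540 recomputed log2 fold changes of the 6 tested genes, 446 kept their direction and their side of the threshold, 22 newly passed it, 26 no longer passed it and 46 changed sign. Direction was kept by Slc1a3, Slc1a5 and Glud1 in the sex comparison and by Slc1a1, Slc1a3 and Slc1a5 between Sst and Pvalb samples under every alternative run.

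The number of the 6 genes called by sex rose from 0 to 1 with pseudocount 0.1, without trend and robust estimation, and with all male controls, to 2 with each library on its own and to 3 with dated males only; leaving out 1 sample gave 0 to 2. Between Sst and Pvalb it fell from 2 to 1 with pseudocount 5 or each library on its own, and to 0 with male Sst samples, with numbered male Sst samples or without the Pvalb samples high in Xist; leaving out 1 sample gave 0 to 3, and 0 without any 1 of PV1-M, PV3-M, PV4-M, PV5-M or PV6-M (adjusted p of 0.0604 to 0.0776 for Slc1a1 and 0.0802 to 0.112 for Slc1a3). Slc1a3 alone was lost without any 1 of SST1-F to SST6-F, SST040241L or SST04241LL (adjusted p of 0.0618 to 0.0653).

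Log2 fold changes that changed sign between females and males were 0.46 for Glul after quantile normalization, 0.25 with all males and 0.69 with dated males, and -0.060 for Slc1a4 with each library on its own; leaving out 1 sample gave -0.12 to 0.99 for Slc1a1, -0.094 to 1.08 for Slc1a4 and -0.42 to 0.23 for Glul. Between Sst and Pvalb, quantile normalization gave 0.030 for Slc1a4, 0.16 for Glul and 0.032 for Glud1, numbered Sst samples 0.33 for Slc1a4 and 0.17 for Glud1, female Sst samples 0.42 and 0.35, numbered male Sst samples 0.10 for Slc1a4 and 0.12 for Glul, and omission of SST0/1-M and PV0/2-M 0.042 for Glud1; leaving out 1 sample gave -0.21 to 0.11 for Slc1a4 and -0.15 to 0.031 for Glud1. After CUS, Glud1 was 0.0015 after scaling to a common median and 0.18 after quantile normalization, dated controls gave 0.40 for Slc1a4, 0.34 for Glul and 0.28 for Glud1, their subset without SS04031R gave -0.21 for Slc1a3, 0.0048 for Slc1a4, -0.31 for Slc1a5, 0.16 for Glul and 0.014 for Glud1, and controls of both sexes gave -0.011 for Slc1a5; leaving out 1 sample gave -0.65 to 0.11 for Slc1a4, -0.26 to 0.16 for Glul and -0.25 to 0.022 for Glud1. Between kinds of title, leaving out 1 sample gave -0.62 to 0.49 for Slc1a1 and -0.059 to 0.53 for Slc1a3. The causes were not tested.

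The count of all genes called by sex moved from 493 to 2549 with each library on its own, 1699 with all males and 6032 with dated males (100 to 1787 leaving out 1 sample), and between Sst and Pvalb from 1133 to 491 with male, 3638 with female and 13 with numbered male Sst samples, 14 without the Pvalb samples high in Xist and 3061 without SST0/1-M and PV0/2-M (389 to 2130). For CUS it moved from 1 to 3 without a filter or with each library on its own, 16 against dated controls without SS04031R, 2309 against numbered controls and 6 against both sexes (1 to 3), and for title kind from 585 to 381 without a filter, 1110 after quantile normalization and 1769 with each library on its own (54 to 1962).

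Between samples that share a number in their titles, the correlation of deviations from group means was -0.05 to 0.12. Samples with unlike numbers were not compared in this way, so whether the numbers pair the samples is not decided. With the replicate number as a block, 0 of the 6 genes were called by sex (11 of all genes; -0.043 for Slc1a1) and 2 between Sst and Pvalb (1190 of all genes; 0.42 for Slc1a4, 0.014 for Glul and 0.20 for Glud1), and no such block could be made for CUS or title kind, whose dated titles carry no replicate number. Depth is unknown, so no counting error can be attached to low values such as those of Slc1a5 and Slc1a1.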
